A study of Mus musculus with 18 samples.

Results

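The 8 genes followed here, Gap43, Basp1, Sprr1a, Sox11, Arg1, Cd44, Flrt3 and Lgals1, are those most often cited as growth genes that sensory neurons switch on when their peripheral axon is cut. They were named from general knowledge of axon regeneration, with earlier results of these data already known, and are 8 of the 47643 genes in the deposited counts. In these injured cultures 1 of them, Sox11, rose clearly, to 1.55-fold of control at 8 h post injury (HPI) and 1.71-fold at 16 HPI, and was back near control at 24 HPI. Flrt3 stood at 0.794-fold of control at 3 HPI and 1.21-fold at 8 HPI, neither past the test against control. Its step between these times passed, but not when replicate number was not fitted as a batch. Cd44 and Lgals1 stood at 1.15-fold and 0.852-fold of control at 16 HPI. Both calls were lost without that batch or without 16 HPI replicate 1. Gap43 and Basp1 stayed close to their high control levels, and Sprr1a and Arg1 were at or near 0 counts throughout.

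Dorsal root ganglion (DRG) neurons were taken from embryonic day e13.5 CD-1 mice and grown as spot cultures (eDRG spot), a drop of dissociated cells whose axons grow out around it. The growth medium held the mitotic inhibitor FDU, which all 6 groups therefore share. Uninjured cultures at DIV7 (7 days in vitro) formed the control group. The other 5 groups had their axons severed with a blade and were lysed 1, 3, 8, 16 or 24 h later, with 3 libraries in each of the 6 groups and 18 in all. The labels also give DIV7 for the injured cultures, whereas the methods place the cut on DIV7, so time since injury and time in culture cannot be told apart. The model has further limits: the neurons are embryonic, still growing and already dissociated once, and there is no nerve, target tissue or immune system. Nothing in the labels says whether the 3 libraries of a group came from separate litters, so p-values measure only the spread between these libraries, which may be technical.

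Each library held between 9478891 and 23082327 counts on genes. A gene was tested where it passed 1 CPM (counts scaled to the library total) in at least 3 libraries, which 13771 genes did, among them 6 of the 8. Libraries with the same replicate number deviated together, so the number was fitted as a batch. A gene is called changed here at a Benjamini-Hochberg adjusted p under 0.05 in edgeR's quasi-likelihood test, adjusted over all tested genes. All comparisons with control share the 3 control libraries. The 8 sensory neuron markers summed to between 9431 and 10023 CPM in control and were lower at 16 HPI, at 8063 to 8830 CPM, with no overlap between these groups. The 24 HPI sums, 8533 to 8926 CPM, did not overlap control either. Of the 8, Tubb3 and Scn9a passed the test at 16 HPI (-0.40 and -0.57), Prph and Pou4f1 were at -0.012 and -0.015, and at 24 HPI Isl1 and Pou4f1 were higher (0.26 and 0.20). Markers of fibroblasts (7 genes), myeloid cells (8 genes), endothelial cells (4 genes) and dividing cells (4 genes) summed to at most 21.7, 7.62, 1.42 and 6.06 CPM in any library. Among them Dcn rose by 2.07 and 2.22 on the log2 scale at 16 and 24 HPI, Cd68 by 0.97 and 0.93, and Top2a by 1.44 at 24 HPI. These stood at 0.570, 0.868 and 0.558 CPM in control. No other tested marker of these lists passed at 16 or 24 HPI. Their part in the changes of the 8 genes followed here was not tested. The 12 glial markers summed to between 154 and 254 CPM, nearly all from Mbp and S100b, which neurons can also express, and the defining glial genes Sox10 and Fabp7 were at 0.557 and 0.702 CPM in control. Reads of a residual rRNA list made up 4.60% of counts in 16 HPI replicate 1, against 0.690% to 1.70% in the others, and 4 of the 5 tested genes of that list were higher at 16 HPI, or 2 without that library.

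An adult sensory neuron answers a cut in its peripheral axon by switching on a set of regeneration-associated genes. Some of these encode proteins of the growing axon tip, such as GAP43, others transcription factors, such as SOX11, or enzymes and adhesion proteins that act on growth. The same neuron expresses several of them while its axon first grows in the embryo and lowers them later, and for this reason they are read as marks of a growth state.

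For 3 of these genes the promoter is shown, since Sox11 and Flrt3 moved most among the 6 that could be tested and Sprr1a had at most 2 counts in any library. The sequences are from RefSeq on GRCm38.p6, on the strand of the gene, from 250 bases before its RefSeq start to 50 bases after it. For Sox11 this start lies upstream of the gene coordinates given below, so its window holds no base of them. Windows were matched for 5 of the 8 genes, and Gap43, Arg1 and Lgals1 had none in the table. Capitals mark the AP-1 site, TGANTCA, which Fos and Jun family dimers bind, and TGACATCA or its reverse complement, a variant of the cyclic AMP response element that was picked out after the windows were seen.
Sox11, chr12:27342669-27342968, minus strand: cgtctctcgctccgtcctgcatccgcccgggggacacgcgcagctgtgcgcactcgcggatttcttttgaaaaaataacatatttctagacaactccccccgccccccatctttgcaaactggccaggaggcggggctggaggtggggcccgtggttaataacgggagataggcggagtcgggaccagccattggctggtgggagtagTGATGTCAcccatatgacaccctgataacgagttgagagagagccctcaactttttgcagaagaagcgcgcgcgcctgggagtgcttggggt
Flrt3, chr2:140671427-140671726, minus strand: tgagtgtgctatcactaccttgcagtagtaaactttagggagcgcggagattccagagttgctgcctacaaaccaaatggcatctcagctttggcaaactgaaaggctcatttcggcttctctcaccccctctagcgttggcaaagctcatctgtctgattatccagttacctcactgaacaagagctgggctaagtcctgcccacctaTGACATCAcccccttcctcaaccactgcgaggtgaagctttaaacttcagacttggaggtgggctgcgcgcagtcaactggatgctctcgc
Sprr1a, chr3:92485832-92486131, minus strand: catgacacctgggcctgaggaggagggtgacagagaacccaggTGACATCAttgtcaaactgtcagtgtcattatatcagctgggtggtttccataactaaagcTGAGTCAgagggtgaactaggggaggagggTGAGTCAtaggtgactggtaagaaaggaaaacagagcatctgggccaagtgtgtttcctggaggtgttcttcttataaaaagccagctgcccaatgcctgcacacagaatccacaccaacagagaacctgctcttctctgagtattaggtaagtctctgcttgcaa
In Flrt3 the variant begins 41 bases before the start, and in Sox11 its reverse complement begins 42 bases before it. Sprr1a holds the variant 207 bases before its start, 2 AP-1 sites 146 and 116 bases before it, and a TATAAA box at 43 bases. Over all 32851 windows of the table, 7.81% hold the AP-1 letters, 3.62% hold the variant on either strand and 13.6% hold TATAAA. The plain cyclic AMP response element TGACGTCA, in 1.79% of all windows, and the Sox letters AACAAT, in 10.7%, were in none of the 5 windows matched. The same held for the E-box CACGTG (7.15%), the joint C/EBP and ATF site TGATGCAA (0.895%) and the STAT letters TTCNNNGAA (8.3%). GGGCGG was in 3 of the 5 and in 35.7% of all windows, and a loose form of the CArG box, with any bases between its outer pairs, in 4 of the 5 and in 73.3%. These matches describe the letters only, and binding was not measured.

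The genes stood at very different levels before the cut. By RPKM, which divides CPM by the exon length and so lets genes be compared, Gap43 was highest in control at 857, 716 and 723 RPKM. This placed it above 99.8% of tested genes. Basp1 followed at 367 ± 25.5 RPKM (SD, n = 3) and Lgals1 at 307 ± 79.5 RPKM, and the libraries of these 2 genes overlapped. Far below them came Cd44 at 20.2 ± 6.75 RPKM and Sox11 at 14.0 ± 0.743 RPKM, which also overlapped each other. Flrt3 was lowest of the 6 at 5.15 ± 0.438 RPKM, near the middle of all tested genes. The same order held with the length of the longest transcript in place of all exons.

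**Figure D1:**
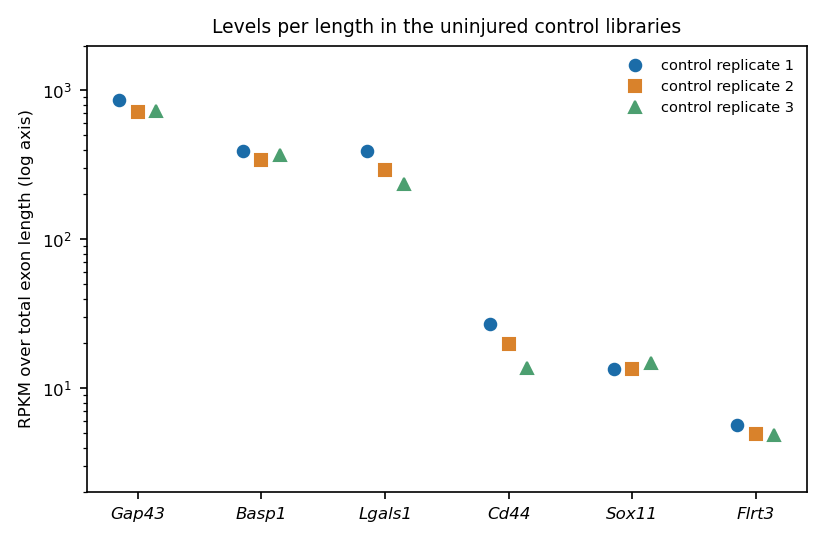
RPKM of the 6 tested genes in the 3 control libraries, on a log axis, with 1 point for each library. Gap43, Basp1 and Lgals1 lie between 237 and 857 RPKM, and Cd44, Sox11 and Flrt3 between 4.84 and 27.1 RPKM.

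At 1 and 3 HPI, 0 of the 6 tested genes changed. In the same comparisons 0.276% and 0.189% of all 13771 genes changed in either direction, and 1768 and 1999 had an unadjusted p under 0.05. At 8 HPI 1 of the 6 had risen and none had fallen, beside 3.78% of all genes risen and 3.9% fallen. At 16 HPI 3 had risen and 1 had fallen, beside 10.7% and 11.5% of all genes. These 4 calls were 1 without control replicate 1 or 16 HPI replicate 1 and 2 without control replicate 3 or 16 HPI replicate 2, and Sox11 was kept each time. At 24 HPI 0 of the 6 differed from control, beside 5.99% of all genes higher and 9.03% lower. None of the 6 passed 2-fold at any time, where 0.029%, 0.029%, 0.537%, 1.49% and 0.821% of all genes did so in order of time. In a joint test over all time points 5 of the 6 differed among the groups, all but Gap43, beside 30% of all genes. The edgeR adjusted p was 1.23e-07 for Sox11, 1.84e-05 for Flrt3, 0.0253 for Lgals1, 0.0255 for Cd44 and 0.0441 for Basp1. Without the batch term Sox11 alone passed this test, without 16 HPI replicate 1 2 genes did and without 1 HPI replicate 2 3 did. Between 1 and 3 HPI 0 of the 6 and 0% of all genes changed in edgeR's test, where 1035 genes had an unadjusted p under 0.05. The median log2 fold change of the 6 lay between 0.0027 at 1 HPI and 0.12 at 8 HPI, and that of all tested genes between -0.0022 and 0.0021.

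**Figure D2:**
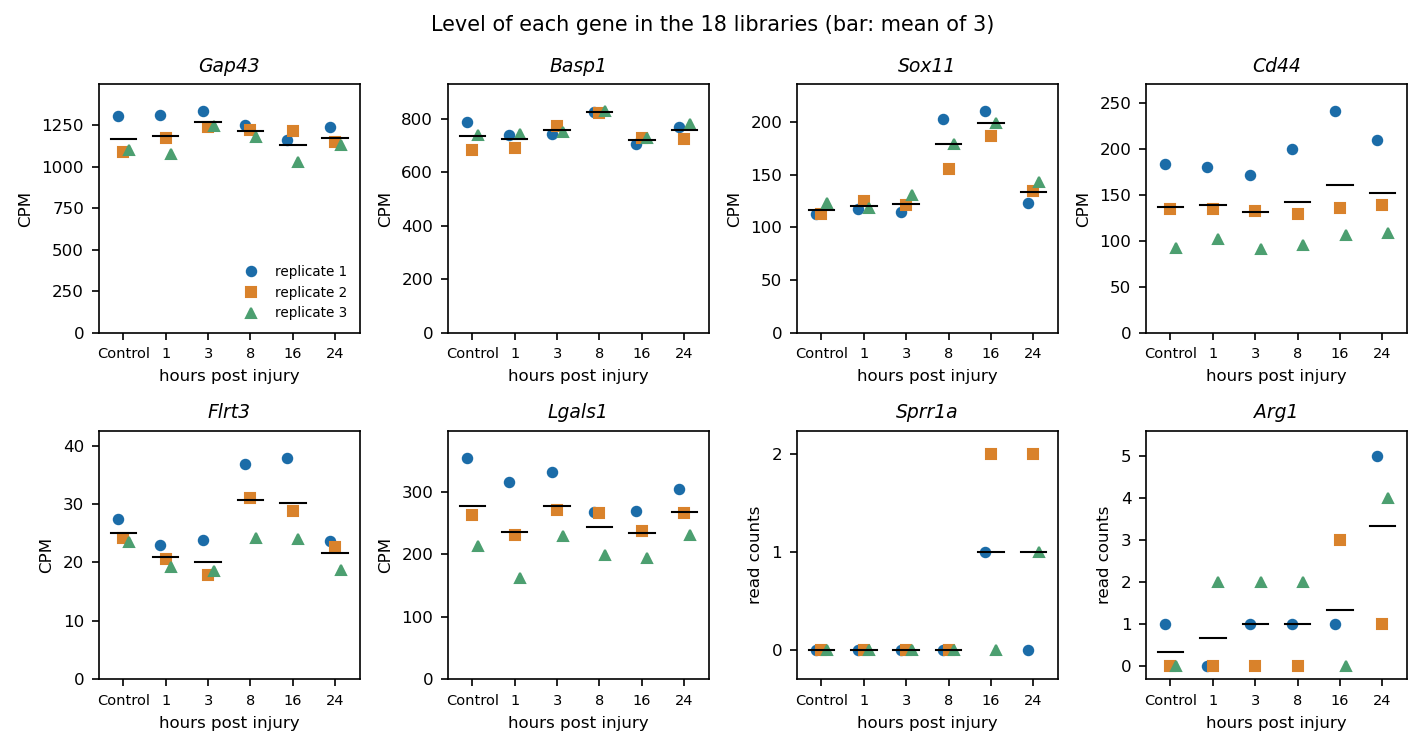
Level of each of the 8 genes in every library, in CPM, or in read counts for Sprr1a and Arg1. Points are libraries, shaped by replicate number, and bars are means of 3. Sox11 is at 113 to 123 CPM in control and 187 to 210.4 CPM at 16 HPI, and Cd44 is ordered by replicate number in every group.

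**Figure D3:**
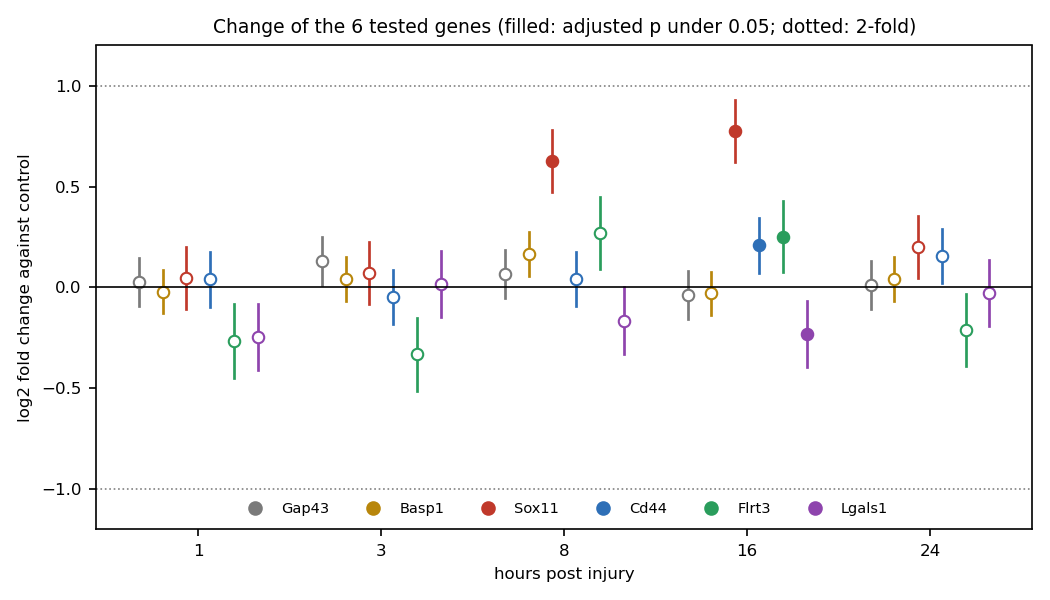
Log2 fold change against control of the 6 tested genes at each time point, with 95% confidence intervals from the fit. Filled points have an adjusted p under 0.05. Sox11 stands apart at 8 and 16 HPI, at 0.63 and 0.77, and the other filled points, all at 16 HPI, lie between -0.23 and 0.25.

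Sox11 (ENSMUSG00000063632.6, chr12:27334264-27342574, minus strand of GRCm38) encodes an SRY-box transcription factor of group C that drives neuronal differentiation and axon growth in embryonic sensory neurons. It is a single-exon gene, so all of its 8311 bases are exon. Control libraries had 113, 113 and 123 CPM of Sox11. The libraries of 1 HPI, with 117, 125 and 118 CPM, and of 3 HPI, with 114, 122 and 131 CPM, lay within or just above that range. At 8 HPI the level had risen to 203, 155 and 179.5 CPM, and at 16 HPI to 210.4, 187 and 199 CPM. Every library of these 2 times lay above every control library, which held for 6.29% of all tested genes at 8 HPI and 10.9% at 16 HPI. At 24 HPI it was 123, 135 and 143 CPM, so that this group met the control range again.

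The rise of Sox11 at 8 HPI came to a log2 fold change of 0.63 ± 0.07 (SE, edgeR's quasi-likelihood test, adjusted p = 1.54e-05) and that at 16 HPI to 0.77 ± 0.07 (adjusted p = 3.02e-07). Within the 3 batches it was 0.85, 0.46 and 0.54 at 8 HPI and 0.90, 0.73 and 0.69 at 16 HPI. With each library of the compared groups left out in turn the change lay between 0.51 and 0.71 at 8 HPI and between 0.72 and 0.80 at 16 HPI, and it stayed past the test each time. At 24 HPI it was 0.20, with a 95% interval of 0.05 to 0.35 and an adjusted p of 0.0745 in edgeR's test. It passed without 24 HPI replicate 1 (0.26, adjusted p = 0.0399), with upper-quartile factors (0.23, adjusted p = 0.0369), with a filter of 10 counts (0.21, adjusted p = 0.0485) and in a fit of these 2 groups alone (0.20, adjusted p = 0.00735). Between neighbouring times Sox11 rose by 0.56 from 3 to 8 HPI (edgeR adjusted p = 7.54e-05) and fell by 0.58 from 16 to 24 HPI (adjusted p = 3.53e-05). The step from 8 to 16 HPI, 0.15, did not pass (edgeR adjusted p = 0.189) but did so without 8 HPI replicate 1, at 0.27 and an adjusted p of 0.0147. The summed sensory neuron markers, given above, were below control at 16 HPI, where Sox11 was highest, and also at 24 HPI, where it met the control range, and the part of this in the result was not tested. In bulk RNA, a change in the number of cells of a type and a change of RNA in each cell cannot be told apart.

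Flrt3 (ENSMUSG00000051379.12, chr2:140650914-140671469, minus strand) encodes a membrane protein with leucine-rich repeats and a fibronectin domain that binds latrophilins and UNC5 receptors in adhesion and axon guidance. Control libraries had 27.5, 24.1 and 23.6 CPM. It was lower at first, with 22.9, 20.5 and 19.3 CPM at 1 HPI, where no library reached the control range, as in 3.3% of all genes, and 23.8, 17.9 and 18.4 CPM at 3 HPI. At 8 HPI it reached 36.8, 30.9 and 24.2 CPM, at 16 HPI 37.9, 28.8 and 24.0 CPM, and at 24 HPI it was down to 23.6, 22.6 and 18.6 CPM. The highest library of both late groups was replicate 1, and replicate 3 lay within the control range.

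Against control, the log2 fold change of Flrt3 was -0.27 at 1 HPI and -0.33 at 3 HPI (edgeR adjusted p = 0.202 and 0.0922), neither past the test, though the first passed with the 2 groups alone (adjusted p = 0.0286) and the second with the DESeq2 Wald test (adjusted p = 0.0409). At 8 HPI it was 0.27 (edgeR adjusted p = 0.0593) and at 16 HPI 0.25 (adjusted p = 0.0374). The call at 16 HPI was lost when replicate 1 or 2 of control (0.20 and 0.24) or of 16 HPI (0.17 and 0.26) was left out, with no batch term (0.27, adjusted p = 0.475), with the DESeq2 Wald test (0.25, adjusted p = 0.0565) and with the 2 groups alone (0.25, adjusted p = 0.0788). Without 8 HPI replicate 3, Flrt3 passed the test at 8 HPI (0.35, edgeR adjusted p = 0.0457). The steps between times were larger than the changes from control. Flrt3 rose by 0.60 from 3 to 8 HPI (edgeR adjusted p = 0.000247) and fell by 0.46 from 16 to 24 HPI (adjusted p = 0.00133). Libraries did not overlap in either step, as in 5.42% and 8.27% of all genes, and the same held for Sox11. Both steps of Flrt3 passed with each library left out in turn, at 0.53 to 0.68 and -0.53 to -0.38. Without the batch term they did not pass (edgeR adjusted p = 0.313 and 0.284). From 3 to 8 HPI, 2 of the 6 genes rose, Sox11 and Flrt3, and none fell, beside 1.74% of all genes risen and 0.559% fallen. From 16 to 24 HPI the same pair fell and none rose, beside 6.22% and 3.59%. The gene lies inside Macrod2 on the opposite strand and shares 0 exon bases with it. Macrod2 stood at 45.6 CPM in control and its log2 fold change was 0.16 at most, never past the test.

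Over the 18 libraries, with the batch removed from log2 CPM, Sox11 and Flrt3 had a Pearson r of 0.79, the highest of the 15 pairs among the 6 genes. The lowest was -0.70, between Gap43 and Cd44. These values share libraries, depth and batches and are given as a description. Among 12397 protein-coding genes, the pattern most like that of Sox11 was that of H3f3b (r = 0.962), which encodes histone H3.3 and has a near-identical relative that could share its reads, then Atf3 (r = 0.959), a stress-induced transcription factor of injured neurons, and Hspa5 (r = 0.954), a chaperone of the endoplasmic reticulum. Atf3 rose far more than Sox11, by 2.29, 3.16 and 1.19 on the log2 scale at 8, 16 and 24 HPI (edgeR adjusted p = 1.82e-06, 4.12e-09 and 0.0011). H3f3b rose by 0.48 at both 8 and 16 HPI and Hspa5 by 0.46 and 0.52. Closest to Flrt3 were Rbm33 (r = 0.953), Nin (r = 0.920) and Rapgef6 (r = 0.910), of which Rapgef6, an exchange factor for Rap proteins, rose by 0.27 at 8 HPI (edgeR adjusted p = 0.00218).

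**Figure D4:**
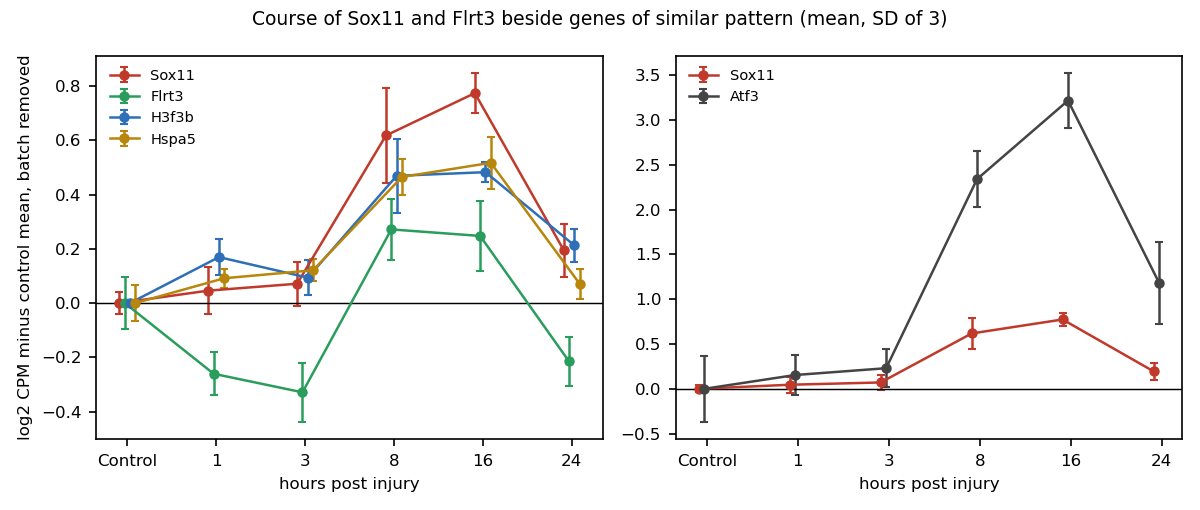
Mean log2 CPM minus the control mean, with the batch removed and bars of 1 SD over 3 libraries, for Sox11, Flrt3 and the genes most like Sox11. The right panel has a wider axis for Atf3, which reaches 3.22 at 16 HPI where Sox11 reaches 0.77, and all 5 genes drop from 16 to 24 HPI.

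Gap43 (ENSMUSG00000047261.9, chr16:42248442-42340651, minus strand) encodes the growth-associated protein of growth cones, a membrane-bound protein that binds calmodulin and is phosphorylated by protein kinase C. Its control libraries had 1305, 1091 and 1101 CPM. The other groups were 1312, 1173 and 1079 CPM at 1 HPI, 1336, 1237 and 1244 CPM at 3 HPI and 1251, 1221 and 1179.9 CPM at 8 HPI. At 16 HPI there were 1163, 1214 and 1026 CPM and at 24 HPI 1241, 1147 and 1131 CPM. All 5 injured groups overlapped control. The largest log2 fold change was 0.13 at 3 HPI (edgeR adjusted p = 0.301), and the 95% intervals over the 5 times ran from -0.16 to 0.25, so a larger change in either direction lay outside them. Gap43 did not pass the joint test over all time points either (edgeR adjusted p = 0.205). With single libraries left out, up to 6 of the 6 tested genes passed that test, so Gap43 was then among them.

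Basp1 (ENSMUSG00000045763.7, chr15:25363277-25413764, minus strand) encodes a relative of GAP43 in function, a myristoylated protein of the inner membrane face of growth cones. It had 787, 685 and 738 CPM in control and 740.5, 692 and 745 CPM at 1 HPI. The next group, 3 HPI, had 744, 774 and 753 CPM, and 8 HPI had 827, 821 and 829 CPM, the highest 3 of the 18 libraries. It was back at 705, 730.3 and 729 CPM at 16 HPI and 771, 724 and 782 CPM at 24 HPI. The 8 HPI libraries all lay above control, as in 6.29% of all tested genes. The log2 fold change of 0.16 ± 0.05 (SE) missed the threshold (edgeR adjusted p = 0.0564). It passed without control replicate 1 (0.22, edgeR adjusted p = 0.034), with the DESeq2 Wald test (0.16, adjusted p = 0.0177) and without rRNA and mitochondrial genes (0.16, edgeR adjusted p = 0.0377). From 8 to 16 HPI Basp1 fell by 0.19 (edgeR adjusted p = 0.0137), the 1 gene of the 6 to change in that step, beside 7.3% of all genes risen and 7.88% fallen, and its libraries did not overlap, as in 8.06% of all genes. That call was lost without 8 HPI replicate 2 (-0.18) or 16 HPI replicate 1 (-0.16), with upper-quartile factors (-0.15), with the 2 groups alone (-0.19) and with no batch term (-0.20, adjusted p = 0.127). Rsrc2 (r = 0.874), Dact3 (r = 0.862), which acts on Wnt signalling, and Rad23b (r = 0.859) were closest to Basp1 in pattern, and at 8 HPI they stood 0.21, 0.17 and 0.22 above control on the log2 scale, where Dact3 did not pass (edgeR adjusted p = 0.0682).

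Cd44 (ENSMUSG00000005087.17, chr2:102811141-102901665, minus strand) encodes the receptor for hyaluronan, which also binds osteopontin and is carried by many non-neuronal cells as well. Control libraries had 184, 134 and 92.1 CPM. They were followed by 180.4, 134 and 102 CPM at 1 HPI, 171, 132 and 91.2 CPM at 3 HPI and 199, 129 and 95.6 CPM at 8 HPI. At 16 HPI Cd44 had 241, 135 and 106 CPM and at 24 HPI 209, 139 and 108 CPM. Replicate 1 was highest and replicate 3 lowest in 6 of 6 groups, and replicate 1 exceeded replicate 3 by 1.98-fold on average, more than any change with injury. Within batches Cd44 was higher at 16 HPI in 3 of 3, by 0.39, 0.0095 and 0.20, a log2 fold change of 0.21 ± 0.06 (SE, edgeR adjusted p = 0.024). This call was lost when replicate 1 or 3 of control (0.19 in both cases) or replicate 1 of 16 HPI (0.11, adjusted p = 0.276) was left out, with no batch term (0.23, adjusted p = 0.834) and with the 2 groups alone (0.20, adjusted p = 0.0678). The difference at 24 HPI, 0.16, did not pass (edgeR adjusted p = 0.111) but did so with upper-quartile factors (0.19, adjusted p = 0.0486) and with the 2 groups alone (0.16, adjusted p = 0.0358). The genes most like Cd44 in pattern over the 18 libraries were Ggh (r = 0.903), which trims folates, Ddias (r = 0.868) and Zbtb42 (r = 0.856). They rose by 0.57, 0.46 and 1.46 on the log2 scale at 16 HPI and by 0.58, 0.46 and 1.58 at 24 HPI.

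Lgals1 (ENSMUSG00000068220.5, chr15:78926725-78930465, plus strand) encodes galectin-1, a secreted sugar-binding lectin that promotes axon growth and that glia and fibroblasts make too. It had 355, 262 and 214 CPM in control, 316, 231 and 161 CPM at 1 HPI and 332, 272 and 229 CPM at 3 HPI. Later groups had 268, 266 and 198 CPM at 8 HPI, 269, 238 and 193 CPM at 16 HPI and 305, 267 and 232 CPM at 24 HPI. Flrt3 was further below control at 1 and 3 HPI (-0.27 and -0.33) but did not pass in this fit. Lgals1 was the 1 gene of the 6 tested with a fall against control past the test. It fell by 0.23 on the log2 scale at 16 HPI (edgeR adjusted p = 0.039), with lower values in 3 of 3 batches but overlapping groups. The call was lost when replicate 1 or 3 of control (-0.16 and -0.25) or any library of 16 HPI (-0.19, -0.24 and -0.26) was left out, with no batch term (-0.25, adjusted p = 0.661) and with upper-quartile factors (-0.21, adjusted p = 0.0649). The glial-list gene S100b was lower too at 16 HPI (-0.33, edgeR adjusted p = 0.00177), Mbp was at -0.10 and did not pass, and the glial sum was 154 to 207 CPM against 166 to 249 CPM in control. Their part in the fall of Lgals1 was not tested. At 1 HPI the change was of like size, -0.24, and did not pass (edgeR adjusted p = 0.196), except in a fit of the 2 groups alone (adjusted p = 0.00321). Closest to Lgals1 in pattern were the sialyltransferase gene St6galnac4 (r = 0.867), Nom1 (r = 0.866) and Limd2 (r = 0.817), at -0.23, -0.08 and -0.16 at 16 HPI, none past the test.

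The replicate order seen in Cd44 returned in other genes. Lgals1 was ordered from replicate 1 down to 3 in 6 of 6 groups and Flrt3 in 5 of 6, with replicate 1 above replicate 3 by 1.51-fold and 1.32-fold on average. In Gap43 replicate 1 exceeded replicate 3 in 6 of 6 groups, by 1.13-fold, whereas the ratio was 0.999-fold in Basp1 and 0.966-fold in Sox11. Summed glial markers had a median of 241, 224 and 165 CPM in replicates 1, 2 and 3. Nearly all of these sums came from Mbp and S100b, which neurons can also express. Of the 12 glial markers, 3 to 6 were at 3 counts or fewer in libraries of replicate 1. In replicates 2 and 3 it was 4 to 7 and 1 to 4, so the low glial genes did not follow the order of the sums. Myeloid markers had medians of 5.92, 5.78 and 4.67 CPM, and fibroblast markers 6.64, 5.30 and 9.46 CPM. The part of all these markers in the order of Cd44 and Lgals1 was not tested.

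Sprr1a (ENSMUSG00000050359.7, chr3:92483952-92485895, minus strand) encodes a small proline-rich protein of the cornified envelope of skin that is widely used as an injury marker of adult DRG neurons. It had 0 counts in every library from control to 8 HPI. At 16 HPI there were 1, 2 and 0 counts and at 24 HPI 0, 2 and 1, all below the limit of 3 counts that a count of 0 allows, which was 0.131 to 0.318 CPM in single libraries and covers counting error only. So a change was not detectable at this depth. Of 16 related genes of the Sprr family and the cornified envelope 0 passed the filter, and 10 of them, Sprr1b and Sprr3 included, had 0 counts in every library.

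Arg1 (ENSMUSG00000019987.8, chr10:24915221-24927484, minus strand) encodes arginase 1, which makes the ornithine used for polyamines and is also abundant in macrophages. Control libraries had 1, 0 and 0 counts. There were 0, 0 and 2 counts in the group of 1 HPI, 1, 0 and 2 in those of both 3 and 8 HPI, and 1, 3 and 0 in that of 16 HPI. At 24 HPI the libraries had 5, 1 and 4 counts, the first group in which all 3 libraries held a read. Over the group this was 10 counts against 1 in control, a ratio of 9.06 with a 95% counting interval of 1.29 to 393. The interval covers counting error only, and the library with 1 count, at 0.0467 CPM, lay below control replicate 1 at 0.0508 CPM. In a fit of all 23606 genes with at least 10 counts over all libraries, the log2 fold change was 2.89 and did not pass (edgeR adjusted p = 0.161). Myeloid markers summed to 6.03 to 7.62 CPM at 24 HPI and 4.28 to 6.15 CPM in control, and their part in these counts was not tested.

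Genes that act with the 8 moved unevenly. The lists were drawn up by role, with earlier results of these data known. They are described by counts beside the shares of all genes given above. Of the enzymes and transporters of arginine and polyamine metabolism, 14 of 16 were tested, and at 8, 16 and 24 HPI 3, 3 and 4 of them rose, with 1 lower at the last. Spermine oxidase Smox rose by 1.01 at 16 HPI, Sat1, which acetylates spermidine and spermine, by 0.84, and ornithine decarboxylase Odc1 by 0.59 on the log2 scale (edgeR adjusted p = 4.57e-06, 1.45e-08 and 1.06e-05). The arginine transporter Slc7a1 fell by 0.34 at 24 HPI (adjusted p = 0.00269 in edgeR). Without the batch term 0, 3 and 2 rose and none fell, with Slc7a1 at -0.35 (edgeR adjusted p = 0.34).

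Of 9 tested genes listed as ligands and partners of Cd44, 1 rose and 1 fell at 8 HPI, 1 rose and 2 fell at 16 HPI and 2 rose and 2 fell at 24 HPI. The 1 that rose at 16 HPI was Tnfrsf12a, the receptor for TWEAK. It went from 5.62 ± 0.744 CPM (SD, n = 3) in control to 26.3 ± 3.02 CPM, a log2 fold change of 2.21 (edgeR adjusted p = 5.49e-10). No binding of it to Cd44 was measured, and it is counted in the list of further effectors below too. The hyaluronan-binding proteoglycan Vcan fell by 1.33 at 24 HPI, the hyaluronidase Hyal2 by 0.76 at 8 HPI and the hyaluronan synthase Has3 by 0.44 at 24 HPI. Vcan and Has3 did not pass without the batch term (edgeR adjusted p = 0.54 and 0.8), and Has3 was also lost without control replicate 1 or 2 or 24 HPI replicate 1 or 2, at -0.26, -0.40, -0.38 and -0.40.

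The relatives and ligands of Flrt3 changed in larger number. Of 12 tested, 0 rose and 6 fell at 8 HPI, 4 rose and 7 fell at 16 HPI, and 2 rose and 7 fell at 24 HPI. Its paralog Flrt2 fell by 0.85 at 8 HPI, the netrin receptors Unc5d and Unc5b rose by 1.19 and 0.64 at 16 HPI, and the small GTPase Rnd1 rose by 1.21 (edgeR adjusted p = 4.91e-05, 5.75e-08, 7.99e-05 and 0.00153). Without the batch term 0, 3 and 1 of the 12 passed, and none of these 4 did (adjusted p = 0.178, 0.312, 0.353 and 0.161). The median of the list was -0.37 at 16 HPI.

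Of 10 tested galectins and galectin-1 receptors, 2 rose and 2 fell at 16 HPI. The plexin Plxna4 fell by 0.47 and Lgals7 by 1.13, whereas Lgals3 rose by 1.24 and Lgals8 by 0.23. Lgals7 and Lgals3 lay near the filter of 1 CPM, at 1.36 and 0.697 CPM in control and 0.607 and 1.68 CPM at 16 HPI. Plxna4 and Lgals8 stood at 415 and 159 CPM in control. Without 16 HPI replicate 1, 0 rose and 3 fell, with Lgals3 at 0.83 and Lgals8 at 0.18, and Lgals3 was also lost without control replicate 1 (1.00) or 3 (1.32). Without the batch term, Plxna4 alone remained past the test. Among 7 tested growth cone proteins and calmodulins, 0 changed at 8 HPI, 1 fell at 16 HPI and 2 rose at 24 HPI. Marcksl1, a relative of MARCKS, rose by 0.24 at 24 HPI (edgeR adjusted p = 0.000663). Palm fell by 0.19 at 16 HPI and Marcks rose by 0.17 at 24 HPI, and both calls were lost when single libraries of control or of that time were left out (Palm -0.16 to -0.17 without control replicate 1 or 3 or 16 HPI replicate 1 or 3, Marcks 0.14 to 0.19 without control replicate 1 or 2 or any 24 HPI library).

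Around Sox11, 7 group C relatives and neuronal targets were tested, of which 2 rose at 8 HPI, 1 rose and 2 fell at 16 HPI and 2 rose and 1 fell at 24 HPI. The other group C factor Sox4 rose by 0.36 at 8 HPI, a call lost when replicate 1 or 2 of control (0.31 and 0.34) or replicate 1 of 8 HPI (0.30) was left out. The neurotrophin Bdnf rose by 0.45 and the neuronal tubulin Tubb3, also counted among the neuron markers, fell by 0.40 at 16 HPI (edgeR adjusted p = 0.000968 and 1.09e-05). Klhl1 rose by 0.76 at 24 HPI, and no longer passed when replicate 2 or 3 of control (0.72 and 0.65) or replicate 1 of 24 HPI (0.66) was left out. Of these 4, Bdnf alone passed with no batch term.

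Some of the transcription factors that are known to control regeneration-associated genes rose at every time point. Of 19 tested, the number that rose was 1, 2, 11, 15 and 4 from the first to the last time, and 0 fell at any of them. The paper had already named several of the listed factors, among them Atf3, Jun, Fos, Egr1 and Rest, as raised in these data. The counts and medians of this list are therefore a description only. The median of the list was 0.26, 0.64 and 0.077 on the log2 scale at the last 3 times. Atf3 went from 13.46 ± 5.52 CPM (SD, n = 3) in control to 118 ± 3.45 CPM at 16 HPI. The immediate early factors Fos and Egr1 were highest at 8 HPI, at log2 fold changes of 2.79 and 2.14, and the repressor Rest rose by 2.06 at 16 HPI (edgeR adjusted p = 5.74e-06, 2.02e-06 and 7.87e-06). The count at 16 HPI was 9 without 16 HPI replicate 1, and without the batch term 4, 6 and 0 of the 19 passed at 8, 16 and 24 HPI.

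Of 40 tested further effectors of axon regeneration, 5 rose and 2 fell at 8 HPI, 12 rose and 10 fell at 16 HPI and 8 rose and 10 fell at 24 HPI. Tnfrsf12a, given above with the Cd44 list, is in this list as well, at 2.21 at 16 HPI. The neuropeptide gene Nts rose by 2.77 at 24 HPI, from 0.350 to 2.61 CPM, Plaur, the urokinase receptor, by 1.69 at 16 HPI, and the integrin Itga5 by 1.46 at 24 HPI (edgeR adjusted p = 5.48e-05, 0.00368 and 0.00154). Nts stood at 3.80 without control replicate 3 and at 2.26 without control replicate 1. Plaur stood at 2.70 without control replicate 1 and 1.26 without control replicate 3, and did not pass the filter on low counts without 16 HPI replicate 1 or 3. Plaur and Itga5 did not pass without the batch term (adjusted p = 0.0912 and 0.117 in edgeR). The median of this list was -0.0085 at 16 HPI. Without the batch term 1, 4 and 4 rose at 8, 16 and 24 HPI and 0 fell at any of them.

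**Figure D5:**
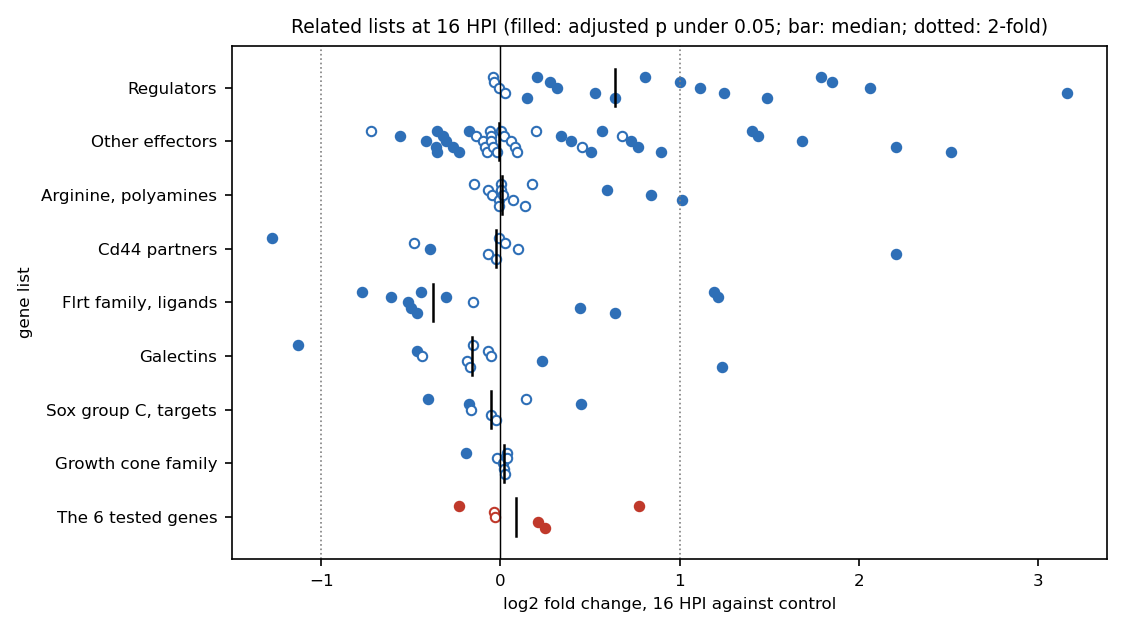
Log2 fold change at 16 HPI of every tested gene of the related lists and of the 6 tested genes, with a bar at each median. Filled points have an adjusted p under 0.05. The regulators lie furthest to the right, with a median of 0.64, and the Flrt family and its ligands have a median of -0.37. The 6 tested genes lie between -0.23 and 0.77. All lists were chosen with earlier results of these data known.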

How the data were processed

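RNA of 18 eDRG spot cultures was sequenced, 3 libraries in each of 6 groups taken from the labels. The authors trimmed reads with cutadapt, aligned them to mm10 with STAR and counted them on genes; the deposited counts are whole numbers per gene, not normalized or batch corrected. The methods name featureCounts with GENCODE vM20, whereas the submitters' processing notes name HTSeq, whose entry names close each table. These 5 entries held 25.2% to 33.2% of counts and were left out. GENCODE vM21 named 47224 of 47643 identifiers. The labels name rRNA depletion and SMARTer cDNA, and the strand setting of the counting is not given in the sources used here.

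The tests were run in edgeR 4.0.16 under R 4.3.3 (TMM factors, genes over 1 CPM in at least 3 libraries, 1 quasi-likelihood fit of all libraries on group plus replicate number, two-sided tests, Benjamini-Hochberg adjustment over 13771 genes). CPM used TMM-scaled totals and RPKM the exon union length. Patterns were compared as Pearson's r of log2 CPM with a prior count of 2. The replicate number was fitted as a batch because, with group means removed, the 45 pairs of libraries that share a number had r of 0.484 to 0.765 over genes (mean 0.619), and the pairs that do not share one had a mean of -0.308; this pairing comes from the data, since the labels give the numbers and not what they mark. The method was tested on simulated data with planted changes larger than those of the tested members and with no batch effect. That test therefore does not bear on calls as small as theirs.

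The members and lists were chosen with earlier results of these data known. Named beside the 8 are up to 4 genes of each list, those past the test with the largest change, and the 3 protein-coding genes most like each of the members that differed among the groups. Alternatives were DESeq2's size factors, upper-quartile factors, the DESeq2 1.42.0 Wald test, 2 other count filters, no batch term, omission of rRNA and mitochondrial genes, a fit of only the 2 groups compared, longest-transcript lengths and each library left out. Leaving 16 HPI replicate 1 out of the list counts was added after the data were seen.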

Additional observations from a re-analysis of the deposited data

Results flagged for a closer look

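The change between neighbouring time points differed from 0 for 3 of the 6 tested genes, by edgeR's quasi-likelihood test of the step itself with Benjamini-Hochberg adjustment. From 3 to 8 HPI, Sox11 rose by 0.56 (adjusted p = 7.54e-05) and Flrt3 by 0.60 (adjusted p = 0.000247) on the log2 scale, in 3 of 3 batches each. From 16 to 24 HPI, the step was -0.58 for Sox11 (edgeR adjusted p = 3.53e-05) and -0.46 for Flrt3 (adjusted p = 0.00133), lower in 3 of 3 batches. From 8 to 16 HPI, the step of Basp1 was -0.19 (edgeR adjusted p = 0.0137), also in 3 of 3 batches. Gap43, Cd44 and Lgals1 did not pass in any step of this fit. Cd44 passed from 8 to 16 HPI with upper-quartile factors (0.21, adjusted p = 0.0321), with the 2 groups alone (0.17, adjusted p = 0.0338) and without 16 HPI replicate 2 (0.24, adjusted p = 0.0195), all in edgeR, and Lgals1 from 16 to 24 HPI with the 2 groups alone (0.20, adjusted p = 0.0111). Groups of 3 libraries were too small for a check of outlying values.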

How the results depend on the processing

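The number of the 6 genes that differed from control was 0, 0, 1, 4 and 0 at 1, 3, 8, 16 and 24 HPI, and 0, 2, 1 and 2 over the steps to 3, 8, 16 and 24 HPI. With no batch term (no replicate block) it was 1 at 16 HPI, and 1, 0 and 1 for the steps to 8, 16 and 24 HPI, and the joint test over all times passed for 1 gene in place of 5. With the 2 compared groups alone it was 2 at 1 HPI, 2 at 16 HPI, 3 at 24 HPI and 2 for the step to 16 HPI. Upper-quartile factors gave 2 at 24 HPI, the DESeq2 Wald test 1 at 3 HPI and 2 at 8 HPI, at least 10 counts as the filter 1 at 24 HPI, and leaving out rRNA and mitochondrial genes 2 at 8 HPI. With single libraries left out the count ran from 1 to 2 at 8 HPI, 1 to 3 at 16 HPI, 0 to 1 at 24 HPI, 0 to 2 for the step to 16 HPI and 2 to 6 in the joint test. The related lists had 2, 3, 31, 60 and 46 genes past the test at the 5 times and, with no replicate block, 0, 1, 6, 18 and 8. Over the longest transcript the control level of Basp1 was 397 RPKM in place of 367 and that of Flrt3 6.30 in place of 5.15, and the order of the 6 levels held. Upper-quartile factors turned the sign of Lgals1 at 24 HPI (0.0036) and of Flrt3 from 8 to 16 HPI (0.022), both unpassed. Leaving out libraries turned the sign of 24 values, none past the test: against control, Basp1 (-0.065 to 0.030 at 1 HPI, -0.0019 to 0.094 at 3 HPI, -0.070 to 0.026 at 16 HPI), Gap43 (-0.022 to 0.075 at 1 HPI, -0.11 to 0.014 at 16 HPI, -0.031 to 0.065 at 24 HPI), Lgals1 (-0.025 to 0.083 at 3 HPI, -0.094 to 0.043 at 24 HPI), Sox11 (-0.016 to 0.085 at 1 HPI) and Cd44 (-0.10 to 0.0079 at 3 HPI), and between times Sox11 and Flrt3 from 1 to 3 HPI (-0.013 to 0.090 and -0.12 to 0.0076), Flrt3 and Lgals1 from 8 to 16 HPI (-0.10 to 0.049 and -0.14 to 0.0041) and Cd44 from 16 to 24 HPI (-0.13 to 0.050). The cause was not tested. The rise of Sox11 at 8 and 16 HPI passed under each of these settings. Depth left Sprr1a and Arg1 undescribed beyond their counts and the counting intervals given above.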
